A study of Mus musculus with 6 samples.

Results

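The genes described here encode subunits of the mitochondrial respiratory chain and of the ATP synthase that are carried by the nuclear genome, together with cytochrome c. They were taken by gene symbol alone (Nduf, Sdh, Uqcr, Cyc1, Cycs, Cox4 to Cox8 and Atp5 genes) from the 7507 genes of an RNA count table, in which 69 genes matched. Only genes with a count in some library are listed there. Subunits that are not listed, such as Sdhc and Sdhd, enter no number of genes and no median given here. The table comes from BALI-Multiome, in which light-directed ligation writes a spatial barcode onto cDNA and accessible DNA within an intact tissue section. Sections of 10 µm were cut from fresh frozen brains of adult mice, and in 3 of them the dentate gyrus (DG) and the CA1 of the hippocampus received separate barcodes, which gave 1 RNA library per region and section. No treatment, strain, sex or genotype is given in the labels, and regions were the groups compared. The sample labels give the age as 12 weeks, whereas their husbandry text gives 8 to 12 months for adult animals. The study speaks of biological replicates, but nothing in the labels ties sections to separate animals, so p-values measure only the spread between these sections, which may be technical. Accessible DNA from these sections was not analysed here.

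Complexes I to IV of the respiratory chain sit in the inner mitochondrial membrane. They pass electrons from NADH and succinate to oxygen while complexes I, III and IV pump protons, and the ATP synthase, also called complex V, uses the returning protons to make ATP. A handful of subunits are encoded in mitochondrial DNA, and those were not analysed here. Neurons draw most of their ATP from this pathway, and much of it pays for ion pumping at synapses.

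The libraries were shallow. Unique molecular identifiers (UMIs) mark single cDNA molecules, and the libraries held between 2844 and 17999 UMIs assigned to genes. The DG gave more UMIs than the CA1 of each section, so that depth and region cannot be told apart. By the study's methods the DG was also illuminated and ligated before the CA1, each with its own barcode. Order and barcode thus cannot be told apart from region either. Of the 7 marker genes listed for DG granule neurons 2 were in the table, with 8 UMIs in all, of which Synpr held 5, 0 and 1 in the DG against 0 in the CA1, while Calb1 held 0 in the DG but 1, 1 and 0 in the CA1. The 7 CA1 pyramidal neuron markers held 4, 2 and 2 UMIs in the DG against 10, 1 and 3 in the CA1. The marker genes are therefore too sparse to check the masks library by library. Microglial markers held 4 UMIs in all and endothelial markers 11, while astrocyte markers took between 0.306% and 0.540% of UMIs. A value of 0 in a library allows up to 3 UMIs, which on a scale of 1000000 UMIs per library (CPM) is 166.7 CPM for the deepest library and 1055 CPM for the shallowest. All such limits and intervals cover counting error only.

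The 69 genes held 593 of 45935 UMIs, or 1.29%. Sections 1, 2 and 3 gave 216, 44 and 84 of these UMIs from the DG and 149, 38 and 62 from the CA1. As shares of all UMIs these were 1.20% (exact 95% binomial interval 1.05 to 1.37), 0.962% (0.700 to 1.29) and 1.33% (1.07 to 1.65) in the DG. In the CA1 the shares were 1.59% (1.35 to 1.87), 1.34% (0.947 to 1.83) and 1.27% (0.978 to 1.63). The lowest library was the DG of section 2 and the highest the CA1 of section 1, and the regions overlapped, with 1.17% ± 0.188 for the DG and 1.40% ± 0.169 for the CA1 (SD, n = 3 libraries). Within a section the DG share was below the CA1 share in sections 1 and 2 and above it in section 3. The log2 ratios, DG over CA1, were -0.41 (exact 95% interval -0.72 to -0.097), -0.47 (-1.13 to 0.19) and 0.066 (-0.42 to 0.56). Their mean of -0.27 was smaller than their SD of 0.29. It was 0.12 when libraries were scaled by DESeq2 factors in place of total UMIs, a scaling chosen after seeing the data. These factors were lowest in the deepest library (DG of section 1, 0.53) and highest in the shallowest (CA1 of section 2, 1.88). They raise the mean ratio of every set of genes by the same amount. In the gene-by-gene fit described below they moved the median of all 999 genes from 0.076 to 0.38. Summed over sections, 344 DG UMIs against 249 CA1 UMIs gave -0.29 (-0.53 to -0.051), an interval that holds no spread between sections. In tissue libraries of this kind, fewer cells of a type and less RNA per cell cannot be told apart. Of 10 oligodendrocyte markers 9 were in the table, and their summed share was 0.850%, 0.547% and 0.746% in the DG and, section by section, 1.07%, 0.668% and 0.802% in the CA1. Their log2 ratios were -0.33, -0.29 and -0.10, lower in the DG in 3 of 3 sections, while those of the 8 astrocyte markers found of 10 were -0.29, 0.32 and 0.32. Their part in the respiratory share was not tested.

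The highest library held 1.65 times the respiratory share of the lowest. The 75 cytosolic ribosomal protein genes, which like the respiratory genes give short and abundant mRNAs, took 4.06%, 2.36% and 2.52% of UMIs in the DG against 4.49%, 2.18% and 2.53% in the CA1, a 2.06-fold range with both libraries of section 1 at the top. For the respiratory genes section 1 was not set apart in this way, its DG library being lower than the DG library of section 3. Nuclear noncoding RNAs, Malat1 and Meg3 among them, took 4.11%, 6.47% and 6.48% in the DG against 5.76%, 8.72% and 7.52% in the CA1, a 2.12-fold range, and there both libraries of section 1 stood lowest within their region. The ribosomal RNA precursor Rn45s, which is not a polyadenylated mRNA, took between 1.19% and 1.90%, a 1.59-fold range. With the noncoding RNAs and Rn45s left out of the totals, the shares of the respiratory genes were 1.27%, 1.05% and 1.45% for the DG and 1.72%, 1.49% and 1.40% for the CA1, and the mean log2 ratio was -0.30 in place of -0.27.

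**Figure D1:**
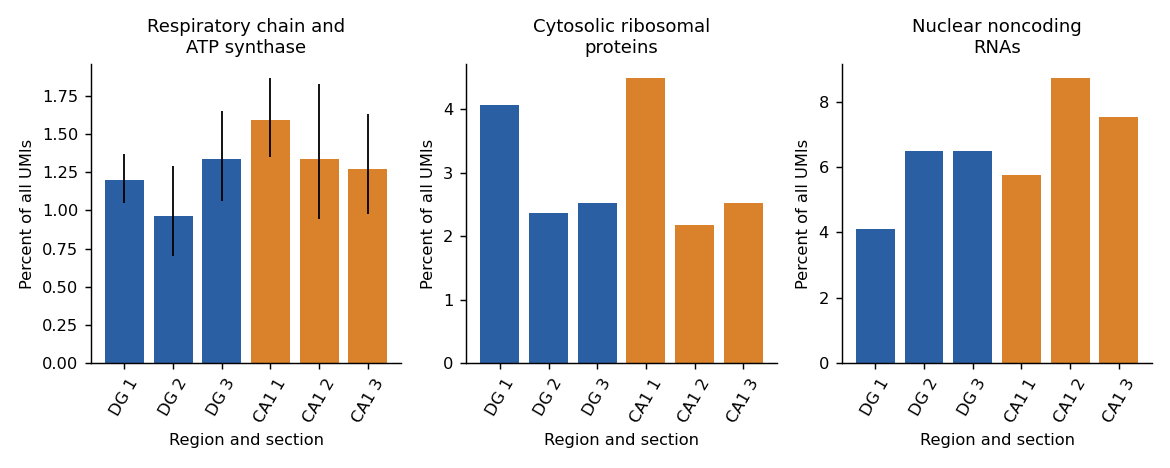
Share of each library's UMIs (percent, y axes of different range) held by the 69 respiratory chain and ATP synthase genes, by 75 cytosolic ribosomal protein genes and by 11 nuclear noncoding RNAs, for DG (blue) and CA1 (orange) libraries of sections 1 to 3. Bars are single libraries, and the error bars of the left panel are exact 95% binomial intervals. The left panel spans 0.962% to 1.59%, while the ribosomal protein bars of section 1 stand above those of the other sections.

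The UMIs were spread unevenly over the complexes. Complex IV, cytochrome c oxidase, held 263 of the 593 UMIs (44.4%) in 12 genes, of which Ndufa4 is counted here as the complex IV subunit it is known to be. Complex I, the NADH dehydrogenase, held 135 UMIs (22.8%) in 30 genes, and the ATP synthase 126 (21.2%) in 15 genes. Complex III, the cytochrome bc1 complex, held 49 UMIs (8.26%) in 9 genes, complex II, succinate dehydrogenase, 17 (2.87%) in Sdha and Sdhb, and cytochrome c itself, encoded by Cycs, 3 UMIs, all in the DG library of section 1. Per kilobase of mRNA the median gene of complex IV held 22.5 UMIs over the 6 libraries. The corresponding medians were 8.29 for the ATP synthase, 6.56 for complex III, 4.16 for complex I and 4.13 for complex II. Lengths are those of the longest curated transcript. A UMI counts a cDNA molecule once whatever its length, so values per kilobase favour short mRNAs. Without division by length the median gene of complex IV held 12 UMIs. The other medians were then 8.5 for complex II, 7 for the ATP synthase, 5 for complex III and 3.5 for complex I. Complex IV had the largest part of the respiratory UMIs in each library, at 43.1%, 43.2% and 47.6% in the DG against 42.3%, 50.0% and 46.8% in the CA1.

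Complex IV held 93, 19 and 40 UMIs in the DG against 63, 19 and 29 in the CA1. Its share of all UMIs was 0.522% ± 0.110 for the DG and 0.646% ± 0.0431 for the CA1 (SD, n = 3). The log2 ratios of -0.38, -0.68 and 0.091 had a mean of -0.33 with an SD of 0.39. With DESeq2 factors, which raise all sets of genes alike, the mean was 0.064. The ATP synthase held 44, 9 and 16 UMIs in the DG against 39, 10 and 8 in the CA1. In section 1 its DG share was the lower one beyond counting error (-0.77, exact 95% interval -1.43 to -0.11), while in section 3 the value was 0.63 (-0.68 to 2.06), and the mean of -0.33 had an SD of 0.83 and was 0.063 with DESeq2 factors. For both complexes the mean ratio was thus smaller than the SD of the sections. With 3 sections this does not show that the regions are alike.

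Complex I held 54, 8 and 18 UMIs in the DG against 32, 6 and 17 in the CA1, with log2 ratios of -0.19, -0.27 and -0.29. These were the most alike of the 5 complexes, with a mean of -0.25 and an SD of 0.054, all 3 below 0, but each section's exact interval included 0, from -0.85 to 0.49 in section 1, and scaling by DESeq2 factors gave a mean of 0.14. Complex III held 16, 6 and 8 UMIs in the DG against 12, 1 and 6 in the CA1. Its mean of 0.47 (SD 1.27) rested on section 2, where 6 UMIs stood against 1, and was -0.24 without it, and the summed UMIs gave -0.099 (-0.98 to 0.81). Complex II held 6, 2 and 2 UMIs against 3, 2 and 2, with a mean of -0.33 and an SD of 0.37, or 0.056 with DESeq2 factors. At these counts a difference between the regions was not detectable for complexes II and III.

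**Figure D2:**
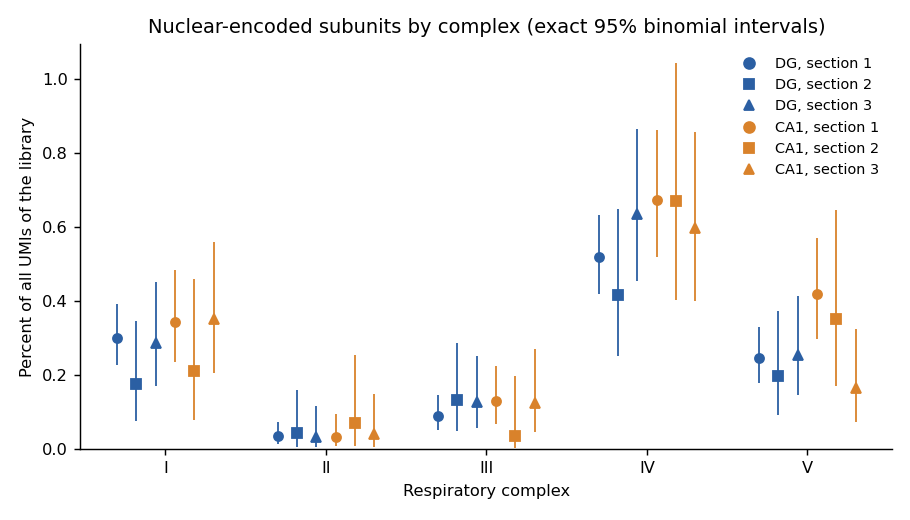
Share of all UMIs of a library (percent, y axis) held by the nuclear-encoded subunits of complexes I to V (x axis). Each point is 1 library, blue for DG and orange for CA1, with the section given by its shape, and bars are exact 95% binomial intervals. Complex IV lies highest in every library, and for each complex the intervals of DG and CA1 libraries overlap.

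**Figure D3:**
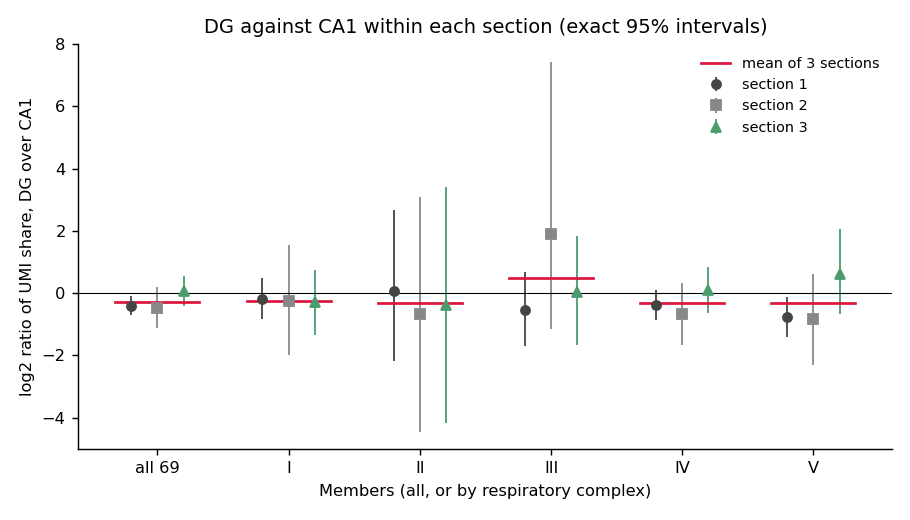
The log2 ratio of the UMI share, DG over CA1 (y axis), within sections 1 to 3 for all 69 genes and for each complex (x axis), with exact 95% intervals as bars and the mean of the sections as a red line. The means lie at -0.27 for all genes and between -0.33 and 0.47 for the complexes, and the bars of complexes II and III are the widest.

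Within complex IV, Cox6a1 and Cox8a stood far above the other genes. Cox6a1 encodes the broadly expressed isoform of subunit 6A and Cox8a that of subunit 8, both small accessory subunits around the catalytic core that mitochondrial DNA encodes. Together they held 145 UMIs, or 24.5% of the UMIs of the 69 genes. Cox6a1 (GRCm38.p6, chromosome 5, 115345652 to 115348958, minus strand, 3 exons, mRNA of 538 bases) held 39, 6 and 8 UMIs in the DG against 20, 4 and 11 in the CA1. Its total of 88 UMIs, 0.192% of all UMIs and 163.6 per kilobase, ranked it at place 37 among the 7507 genes, and the same total was found for Rplp1, the ribosomal protein gene with most UMIs (39, 8 and 8 in the DG, 22, 2 and 9 in the CA1). The libraries of the regions overlapped for Cox6a1, at 1583 ± 506 CPM for the DG and 1935 ± 462 CPM for the CA1. Cox8a (chromosome 19, 7215158 to 7217616, minus strand, 2 exons, mRNA of 545 bases) held 17, 2 and 11 UMIs in the DG against 15, 5 and 7 in the CA1, 57 in all and 104.6 per kilobase, at place 65. It varied more between the DG libraries (1043 ± 660 CPM, from 437 to 1747) than between the CA1 libraries (1600.0 ± 159.6 CPM, from 1439 to 1758), and the DG library of section 3 lay inside the CA1 range.

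Nuclear genes of the respiratory chain are known to be driven by the factors NRF1, GABP (of the ETS family) and YY1. The promoters of Cox6a1 and Cox8a are shown as those of the members with most UMIs, as the RefSeq strand of GRCm38.p6 from 250 bases before the start of transcription to 50 bases after it. Capitals mark matches to an NRF1 core (GCGCA and GCGC with any base between them) or an ETS core (CCGGAAG) on either strand, and the letters of a match on the other strand appear reversed and complemented.
Cox6a1, chr5:115348909-115349208, minus strand: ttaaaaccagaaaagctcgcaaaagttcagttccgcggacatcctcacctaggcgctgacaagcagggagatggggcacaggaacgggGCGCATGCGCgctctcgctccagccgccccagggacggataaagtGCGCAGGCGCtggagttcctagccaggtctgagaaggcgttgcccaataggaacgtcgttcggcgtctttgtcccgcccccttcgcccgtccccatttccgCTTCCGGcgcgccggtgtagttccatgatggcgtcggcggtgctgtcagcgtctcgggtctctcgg
Cox8a, chr19:7217567-7217866, minus strand: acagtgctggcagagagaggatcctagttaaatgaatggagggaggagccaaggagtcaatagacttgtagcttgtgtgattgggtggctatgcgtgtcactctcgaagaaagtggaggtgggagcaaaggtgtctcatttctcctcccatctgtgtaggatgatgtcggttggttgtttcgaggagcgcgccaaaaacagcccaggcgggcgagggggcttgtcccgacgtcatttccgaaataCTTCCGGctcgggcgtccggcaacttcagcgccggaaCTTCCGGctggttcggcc
The Cox6a1 window holds 2 NRF1 cores and 1 ETS core, and the Cox8a window 2 ETS cores. In neither window do marked matches overlap.

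Promoters of 58 of the 69 genes were found in the RefSeq table. An NRF1 core was present in 15 of them (25.9%), against 12.1% of the 5666 promoters of genes in the count table and 5.19% of all 27025 promoters of the same length. An ETS core was present in 24.1% of the respiratory promoters, 19.5% of those of the count table and 9.93% of all. A YY1 core (AAGATGG, either strand) was present in 15.5%, 8.74% and 7.28%. Among promoters of the ribosomal protein genes the shares were 10.7% for the NRF1 core, 39.3% for the ETS core and 16.1% for the YY1 core. No difference between these shares was tested. These are matches of letters, not bound sites.

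Of the other complex IV genes, Cox7c, a small accessory subunit, held 8, 4 and 5 UMIs in the DG against 5, 3 and 0 in the CA1. Cox4i1, the broadly expressed isoform of subunit 4 at which ATP is known to regulate the enzyme, held 6, 2 and 5 against 5, 3 and 3 and was found in all 6 libraries. For Cox6b1, which faces the intermembrane space, the values were 4, 2 and 3 against 6, 0 and 1. In each of these genes the regions overlapped. Cox5b, a zinc-binding subunit, held 5, 1 and 1 UMIs against 1, 0 and 4. Cox6c, an accessory subunit, had all of its 12 UMIs in section 1, with 7 in the DG against 5 in the CA1 and 0 in the other sections. Among the 999 genes with at least 10 UMIs, 11 (1.10%) had UMIs in section 1 only, and Cox6c was the 1 such gene among the 16 respiratory genes that reached 10 UMIs. Section 1 gave 59.6% of all UMIs and 61.6% of those of the respiratory genes. Ndufa4 held 3, 1 and 1 UMIs against 0, 1 and 2, and Cox5a, the partner of Cox5b in the matrix-facing part, 0, 0 and 1 against 1, 1 and 0.

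Several subunits exist as isoforms from separate genes. Of the subunit 7A and 7B genes, Cox7a2, the isoform found in most tissues, held 3, 0 and 0 UMIs in the DG against 5, 1 and 0 in the CA1. Cox7a2l, a relative known for its role in joining complexes III and IV into supercomplexes, held 1, 0 and 1 against 0, 1 and 1. Cox7b held 0, 1 and 4 UMIs against 0 in every CA1 library. The libraries of the regions overlapped for Cox7a2 and Cox7a2l, and the 5 UMIs of Cox7b came mostly from the DG of section 3. The 3 genes Atp5g1, Atp5g2 and Atp5g3 encode the same mature subunit c, which forms the rotor ring of the ATP synthase. Atp5g1 held 2, 1 and 2 UMIs in the DG against 1, 0 and 0 in the CA1, Atp5g3 held 5, 0 and 0 against 1, 0 and 0, and Atp5g2 had 1 UMI in the DG of section 2. Every 31-base stretch of the Atp5g2 mRNA (100%) and 89.2% of those of Atp5g1 occur elsewhere in the genome, against 0.576% for Atp5g3, so the 3 genes could not be compared with each other.

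In the ATP synthase, Atp5b, the catalytic beta subunit of the F1 head, held 7, 0 and 2 UMIs in the DG against 8, 1 and 2 in the CA1. Its share was lower in the DG in 3 of 3 sections, at 235.5 ± 207.0 CPM against 539 ± 275 CPM, with overlapping libraries. In section 2 this rested on 0 UMIs against 1, and in section 3 on equal UMIs, 2 against 2, in libraries of unlike depth. How many of all genes show such a pattern was not counted. Atp5a1, the alpha subunit that alternates with it in the head, held 2, 3 and 1 UMIs against 1, 0 and 0, so that the values of these partners, which occur in equal number in the enzyme, lay in opposite directions at these counts. The F1 head, counted together with the central stalk and so with Atp5c1, Atp5d and Atp5e, held 48 UMIs in 5 genes. The 10 genes of the peripheral stalk and the membrane part held 78. Atp5d, the delta subunit of the central stalk, held 3, 1 and 1 UMIs against 4, 0 and 1. Atp5k, subunit e of the membrane part, held 6, 2 and 3 UMIs against 7, 1 and 1 and reached 62.5 UMIs per kilobase on an mRNA of 320 bases, behind Cox6a1 and Cox8a. Atp5j, coupling factor 6 of the peripheral stalk, held 7, 0 and 2 against 4, 1 and 0. An exon of Gabpa on the other strand overlaps 14.2% of the exon bases of Atp5j, and counting ignored strand. How many UMIs of Atp5j this affected was not tested. Atp5o, which links the peripheral stalk to the head, held 0 UMIs in every DG library and 3, 1 and 1 in the CA1.

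In complex II, Sdha, the flavoprotein that oxidises succinate and also serves the citric acid cycle, held 4, 2 and 0 UMIs in the DG against 3, 2 and 2 in the CA1, or 222, 437 and 0 CPM against 321, 703 and 411 CPM. Sdhb, the iron-sulfur subunit, held 2, 0 and 2 against 0 throughout. The Sdha libraries overlapped, although its share was lower in the DG in 3 of 3 sections. In section 2 the UMIs were equal, 2 against 2, and the lower share came from the deeper DG library. How many of all genes show this pattern was not counted.

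Complex I was the most thinly covered of the large complexes. Of its 30 genes 15 held 3 UMIs or fewer over all libraries, and 0 had a UMI in all 6. The 7 core subunits carried by the nucleus, which hold the flavin and the iron-sulfur centres, had 30 UMIs together and the 23 other subunits 105. Ndufs7, a core iron-sulfur subunit next to the quinone site, held 6, 1 and 1 UMIs in the DG against 2, 1 and 0 in the CA1. The accessory subunits Ndufa6 and Ndufb8 held 5, 2 and 0 against 3, 0 and 1, and 4, 2 and 2 against 2, 0 and 1. Ndufb8 was at 222, 437 and 318 CPM in the DG against 213.7, 0 and 205.5 CPM in the CA1, and its libraries did not overlap. In complex III, Uqcrq, a small subunit beside cytochrome b, held 2, 2 and 1 UMIs against 4, 1 and 0. Uqcr11 held 1, 1 and 1 against 1, 0 and 5, with most of its UMIs in the CA1 of section 3, and Uqcrb, the quinone-binding protein, 3, 1 and 1 against 0 throughout. The redox-active subunits Uqcrfs1, the Rieske protein, and Cyc1, cytochrome c1, held 4 and 3 UMIs in all.

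**Figure D4:**
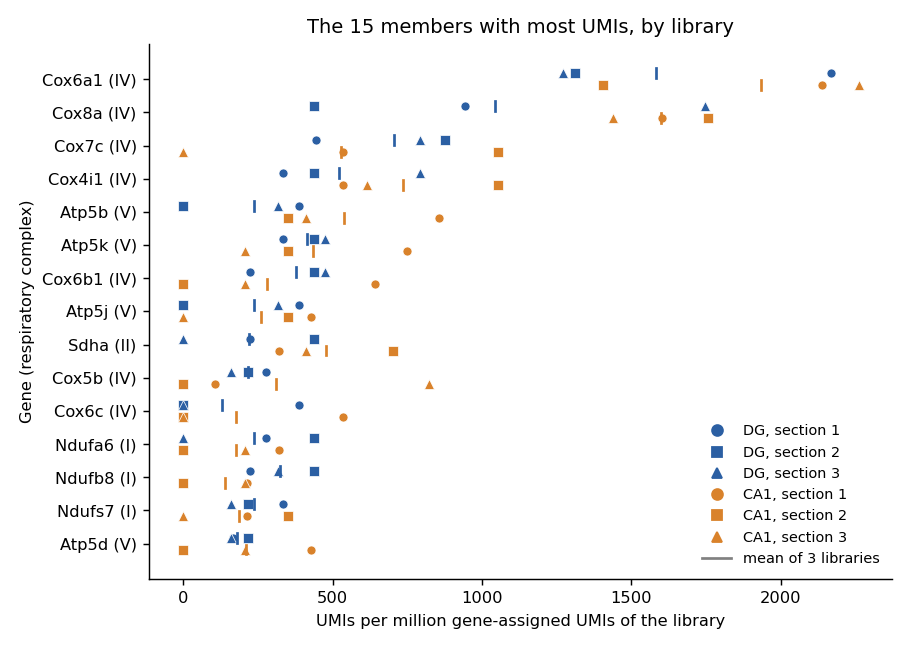
CPM in each library (x axis) of the 15 genes with most UMIs (y axis, complex in parentheses), with DG above in blue and CA1 below in orange, the section given by the shape and the mean of 3 libraries by a vertical line. Cox6a1 lies between 1270 and 2261 CPM in all 6 libraries, the genes from Atp5b downwards, Atp5k aside, reach 0 in at least 1 library, and DG and CA1 points overlap in each gene but Ndufb8.

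The distribution over genes was steep. The 15 genes with most UMIs held 344 of the 593 (58.0%), the other 54 had at most 10 each, and 22 of the 69 had 3 or fewer. A UMI was found in all 6 libraries for 4 genes, Cox6a1, Cox8a, Cox4i1 and Atp5k (5.80%, against 5.25% of all 7507 genes). In 1 library only, 11 were found (15.9%, against 40.4%), and at least 10 UMIs were reached by 16 (23.2%, against 13.3%). The median was 5 UMIs per gene, against 3 over all genes and 17 over the ribosomal protein genes. The typical respiratory gene thus had more UMIs than the typical gene listed and fewer than the typical ribosomal protein gene. The DG libraries held a UMI for 52, 26 and 39 of the 69 genes and the CA1 libraries for 44, 24 and 29. At the depth of the shallowest library, 2844 UMIs, the expected numbers were 21.6, 19.1 and 24.1 in the DG against 25.6, 24 and 20.7 in the CA1, so the regions overlapped once depth was made equal. Of the 69 genes 15 (21.7%) had no UMI in the CA1 and 6 (8.70%) none in the DG, each with at most 5 UMIs in all, against 35.2% and 16.8% of all genes. The DG libraries gave 58.0% of the UMIs of the respiratory genes and 62.8% of all UMIs.

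DG was compared with CA1 gene by gene with edgeR's quasi-likelihood test over the 999 genes with at least 10 UMIs, 16 of them respiratory. After Benjamini-Hochberg adjustment 0 of 999 genes (0%) and 0 of the 16 passed 0.05 by edgeR, and 0 by DESeq2. At an unadjusted p under 0.05 edgeR gave 52 genes (5.21%) and DESeq2 17 (1.70%), with 0 respiratory genes among either. With the section as a block, 1 of the 999 genes (0.1%) was called, Prkce, which encodes a protein kinase C and was named here after its value was seen, and again 0 respiratory genes. The log2 fold changes of the 16 genes, DG over CA1, lay between -0.97 and 0.73 with standard errors between 0.38 and 1.12, and their median was -0.27, against 0.076 over all 999. In all, 11 were below 0 and 5 above, but with DESeq2 size factors given to edgeR 9 of 16 were above 0, the medians then being 0.040 and 0.38. The difference between the median of the respiratory genes in the fit and that of all genes was -0.34. It was below 0 in every setting, but some settings held few respiratory genes. These were 4 without section 1 (-0.27), 6 with a minimum of 20 UMIs (-0.39) and 1 with edgeR's own expression filter (-0.061). The size of the difference also depended on single libraries. It was -0.086 without DG replicate 1, -0.25 without DG replicate 3, -0.52 without CA1 replicate 2, -0.58 without CA1 replicate 3 and -0.63 without section 3. It moved less without DG replicate 2 (-0.39), CA1 replicate 1 (-0.36) or section 2 (-0.36). With a single library, section 2 or section 3 left out, between 7 and 15 respiratory genes kept enough UMIs for the test. The difference itself was not tested.

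The 3 genes with the smallest unadjusted p among those lower in the DG were Atp5b, at -0.97 on the log2 scale (standard error 0.79), Cox8a, at -0.52 (0.46), and Sdha, at -0.91 (0.97). Among those higher in the DG they were Ndufb8, with 0.73 (1.12), Cox7c, with 0.46 (0.74), and Ndufs7, with 0.61 (1.12). The unadjusted p of Atp5b, 0.221 by edgeR, was the lowest of the 16, and its adjusted p was 1.00. The change of Cox6a1, which had the smallest standard error of the 16, was -0.16 (0.38) and that of Cox4i1 was -0.40 (0.73). None of these genes passed the test, and most standard errors were as large as the change itself. A two-sided exact permutation test, run on log2(CPM + 1), gave Ndufb8 a p of 0.1, the smallest that 3 libraries against 3 allow, and the other 14 of the 15 genes with most UMIs larger values, up to 1. Ndufb8 was the 1 gene of the 16 whose libraries did not overlap with the DG higher, a pattern shown by 7.11% of the 999 genes, and 0 of the 16 did so with the CA1 higher, against 5.11%. Over all 69 genes, at any count, the libraries of 4 did not overlap with the DG higher (Ndufb8, Atp5a1, Atp5g1 and Uqcrb, against 3.04% of the 7507 genes) and those of Atp5o with the CA1 higher (against 1.4%). Without a minimum count, over 7507 genes, edgeR gave Atp5o alone of the 69 genes at an unadjusted p under 0.05, against 1.69% of all genes, and 0 genes after adjustment.

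The mRNAs of the 69 genes are short, which bears on what the counting could see. All matched a RefSeq gene model, lie on 18 chromosomes and have mRNAs of 320 to 3154 bases with a median of 763, and 43 are shorter than 1000 bases. Across the 69 genes UMIs were lower for longer mRNAs, with a Spearman's rho of -0.32, a description over genes counted in the same libraries. Many genes of this class have left processed copies in the genome, and reads that map to several places were dropped by the default counting. For each mRNA the share of its 31-base stretches found elsewhere in the genome was counted, and 16 genes had none, Cox4i1, Sdha, Ndufs7 and Atp5d among them. The 34 genes with under 10% held 216 UMIs, with a median of 4.5 per gene and 4.25 per kilobase. The 24 genes with 10% to 50% held 298 UMIs, with a median of 6 per gene and 9.80 per kilobase, Cox6a1 (25.4%) and Cox8a (32.2%) among them. The 11 genes with at least 50% held 79 UMIs, with a median of 5 and 7.45 per kilobase. Genes with many copies elsewhere were thus not the lowest group, although Atp5g2 (100%) and Atp5l (89.9%), a membrane subunit of the ATP synthase, held 1 UMI each, whereas Cox7c (88.3%) held 25. How many reads of these genes were dropped was not tested. Exons of 7 of the genes are overlapped by those of another gene on the other strand, which unstranded counting cannot tell apart.

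**Figure D5:**
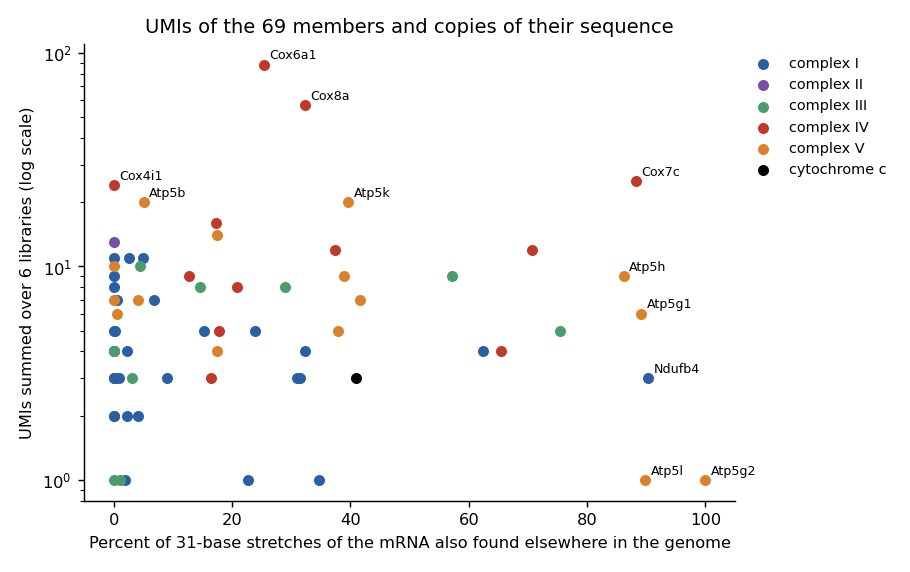
UMIs of each of the 69 genes summed over 6 libraries (y axis, log scale) against the percent of 31-base stretches of its mRNA that also occur elsewhere in the genome (x axis), coloured by complex. Cox6a1 and Cox8a lie highest at 25.4% and 32.2%, and at the right Cox7c with 25 UMIs stands above Atp5l and Atp5g2 with 1 UMI each.

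Genes of neighbouring pathways were counted in the same way. Of 47 assembly factors of the respiratory complexes 24 were in the table with 80 UMIs, and 1 had enough for the test. This was Pet100, an assembly factor of complex IV, with 1, 0 and 0 UMIs in the DG against 7, 3 and 0 in the CA1, a log2 fold change of -3.51 (standard error 1.21) with an adjusted p of 0.786 by edgeR. Cox17, a copper chaperone of the same complex, held 0, 2 and 2 against 2, 1 and 0, and Lrpprc, which stabilises mitochondrial mRNAs, 3, 1 and 1 against 0, 0 and 2. Usmg5, a small ATP synthase subunit outside the symbol rule, held 5, 1 and 3 UMIs against 1, 0 and 0 (2.22, standard error 1.36, adjusted p of 0.995 by edgeR). The table also held 2010107E04Rik with 9 UMIs and Atpif1, the inhibitor of the ATP synthase, with 6.

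The citric acid cycle and pyruvate dehydrogenase list had 14 of 22 genes in the table with 52 UMIs, led by Ogdh, Pdk1 and Mdh2 with 10, 8 and 7. The 11 of 13 listed carriers and channels held 37 UMIs, Vdac1 of the outer membrane 7 and the ADP/ATP carriers Slc25a4 and Slc25a5 6 each. Glycolysis had 15 of 16 genes and 104 UMIs, against 593 in the 69 respiratory genes. There Gapdh held 16, 3 and 2 UMIs in the DG against 4, 0 and 1 in the CA1 (log2 fold change 1.26, standard error 0.80), Aldoa 3, 3 and 5 against 2, 3 and 1 (0.26, 0.87) and Gpi1 2, 0 and 1 against 5, 0 and 3 (-1.93, 1.07). Regulators of mitochondrial biogenesis had 6 of 14 genes and 29 UMIs, with Ppargc1b at 5, 2 and 3 against 0, 4 and 1, Ppargc1a at 5 UMIs in all and Nrf1 at 3. The mitochondrial ribosome had 41 genes and 114 UMIs, led by Mrps5 (24), Mrpl19 (10) and Mrpl12 (7), and the import machinery 14 genes and 59 UMIs, led by Timm44 (27), Tomm34 (6) and Tomm70a (4). Of the 10 genes of these lists that were tested, 0 passed the threshold by edgeR and 1, Pet100, had an unadjusted p under 0.05. Of 64 ribosomal protein genes tested 0 passed and 3 had an unadjusted p under 0.05. Rplp1, Rpl37 and Rps29, the ones with most UMIs, were not among these 3. Their changes were 0.022, 0.17 and 0.25, with unadjusted p of 0.954, 0.699 and 0.598 by edgeR.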

How the data were processed

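RNA libraries from DG and CA1 of 3 sections were examined, grouped by region as the labels give it. The authors extracted 6-base UMIs (UMI-tools), split reads by barcode (cutadapt 4.1), mapped them to mm10 (STAR 2.7.9a) and counted UMIs per gene (featureCounts of Subread 2.0.3, default options, which ignore strand and drop multi-mapping reads), per the submitters' processing notes and the study's methods. The deposited counts carry 1 added to every gene, which was removed, and the line of totals was dropped. Deposited CPM, averages, SDs and fold and log10 ratios, which are the authors' own comparisons, were not used.

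Counts were tested with edgeR 4.0.16 (limma 3.58.1, R 4.3.3; quasi-likelihood, TMM, total UMIs as library size, at least 10 UMIs over 6 libraries, Benjamini-Hochberg, 0.05), tested on simulated data. This test reports no standard error. Those given for edgeR are the absolute log2 fold change divided by the square root of the test's F statistic, and are unstable for changes near 0. Alternatives were DESeq2 1.42.0, other scalings and filters, the counts as deposited, section as a block and leaving out sections or libraries. Shares have exact (Clopper-Pearson) 95% intervals, and ratios of shares exact conditional ones. Gene models and promoters came from RefSeq GRCm38.p6, the assembly of mm10. Python 3.11.15, scipy 1.17.1, numpy 2.4.6 and pandas 2.3.3 were used.

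The section number pairs the DG and CA1 libraries, which were made from 1 piece of tissue. Their deviations from the region means correlated at 0.154, 0.0414 and 0.0724 over 999 genes. Named were the 15 members with most UMIs, the 3 in each direction with the smallest p, members with paralogous isoforms and the 3 genes with most UMIs of each other list. Members and lists were chosen with earlier results of these data known. Others named (Atp5o, Atp5a1, Uqcr11, Uqcrb, Ndufa4 and the like) were chosen for their role or after their values were seen.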

Additional observations from a re-analysis of the deposited data

How the results depend on the processing

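With 0 genes called by edgeR, the replicate block, which pairs the libraries of a section, called 1 (Prkce), and so did a minimum of 20 UMIs. Leaving out sections or libraries gave 0 to 1, the 1 being Prkce without CA1 replicate 1. The block changed no other call, and no respiratory gene was called in any setting. Of 193 alternative log2 fold changes of the named genes 174 kept their sign, 19 reversed and 0 passed the threshold (lowest adjusted p 0.663, edgeR). With DESeq2 size factors, which moved the median of all genes from 0.076 to 0.38, Cox6a1 reversed to 0.14, Cox6b1 to 0.072, Cox5b to 0.10 and Cox6c to 0.0088. Without a filter, where that median was 0.46, Cox6a1 was at 0.0074, DESeq2 gave Cox6b1 0.038, and counts as deposited gave Atp5j -0.031 and Ndufa6 -0.099. Over libraries and sections left out, ranges that crossed 0 were -0.64 to 0.020 for Cox6a1, -0.27 to 1.13 for Cox7c, -0.82 to 0.69 for Atp5k, -0.77 to 1.39 for Cox6b1, -0.46 to 1.21 for Atp5j, -0.73 to 0.11 for Cox6c and -0.27 to 0.52 for Ndufa6. The log2 share ratio of complex I was -0.14 from counts as deposited, -0.16 with TMM factors and 0.14 with DESeq2 factors, which also turned all members to 0.12 and complexes II, IV and V to 0.056, 0.064 and 0.063, and moved complex III from 0.47 to 0.86. Leaving out a section gave -0.44 to -0.17 for all members, -0.28 to -0.23 for complex I, -0.53 to -0.16 for complex II, -0.24 to 0.97 for complex III (the lower end without section 2), -0.53 to -0.15 for complex IV and -0.80 to -0.071 for complex V (the upper end without section 2, the lower without section 3). The expected numbers of genes found at the shallowest depth were 21.6, 19.1, 24.1, 25.6 and 20.7 for the other libraries. Except where the scaling itself moved all genes, the cause was not tested.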
